A study of Homo sapiens with 2 samples.

Results

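The mitochondrial ribosome is built largely from proteins encoded in the nucleus under the symbols MRPL (large subunit) and MRPS (small subunit), and the RNA of these genes is described here in prostate cancer cells exposed to a BET-kinase inhibitor. Members were all gene symbols in the deposited tables, alone or inside a joined name, made of MRPL or MRPS, a number and at most 1 letter from A to C. The rule found 90 rows, which summed to 76 genes, 47 of the large and 29 of the small subunit, among 49672 gene names. Of these, 63 were listed alone in a row (40 large, 23 small), and 13 were found only in rows that joined them with a neighbouring gene (7 large, 6 small). No member was filtered out, since each had at least 1 RPKM (reads scaled by transcript length and library size) in a library, and 8 member rows on patch or alternate sequences were listed at 0 in both libraries.

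The cells were C4-2B, a bone-metastatic subline of the prostate cancer line LNCaP that grows without androgen, and their total RNA was profiled. One group received 2.5 µM MA4-022-1, which the labels call a BET-kinase inhibitor, and the other received the vehicle DMSO for a time that the labels leave unstated. With 1 library of 1 cell line in each group there is no spread between replicates, and p-values are not given. BET proteins bind acetylated histones and help RNA polymerase II to elongate.

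Mitochondrial ribosomes translate the few messages of the mitochondrial genome, all of which code for subunits of the respiratory chain and ATP synthase. Their RNAs come from that genome, while all their proteins are made in the cytosol, imported and assembled on the RNA. The small subunit decodes the message, and the large subunit forms the peptide bond and guides the new chain through a tunnel to the inner membrane.

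The values were RPKM per gene, and from the steps between low values the totals behind them were 19938434 reads with MA4-022-1 and 27169406 with vehicle. Members had between 184 and 16527 estimated reads in a library, with a median of 1388.5. The 95% exact counting interval of a member's log2 ratio then had a median half-width of 0.11 and at most 0.24, which covers counting error only. Among markers of the line, TMPRSS2 had 310 RPKM in the MA4-022-1 library and 251 RPKM in the vehicle library, and HOXB13 had 31.7 and 54.8 RPKM in the same order. PECAM1 of endothelium and ALB of liver were listed at 0 in both libraries, PTPRC of leukocytes had 0.192 RPKM with MA4-022-1 and 0.0209 with vehicle, and COL1A1 of fibroblasts had 5.03 and 1.19 RPKM. The part of such cells in the results was not tested. All 33 rows of the mitochondrial chromosome were listed at 0 in both libraries, so the ribosomal RNAs and messages that these proteins serve gave no value.

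Most mitoribosome genes had less RNA in the MA4-022-1 library than in the vehicle library, and few of them by much. Differences are given as log2 of RPKM + 1 with MA4-022-1 over RPKM + 1 with vehicle, and folds use the same scale, so differences of low genes are understated. The median of the 63 genes listed alone was -0.46, with quartiles of -0.77 and -0.18, and their ratios ran from -1.86 to 0.26. The median level was 51.6 RPKM in the MA4-022-1 library and 78.6 RPKM in the vehicle library, and the summed level was 4581 and 6362 RPKM. In all, 53 of the 63 genes (84.1%) were lower with MA4-022-1, against 51.1% of all 15438 expressed genes, 55.8% of 9842 expressed protein-coding genes and 57% of 5926 protein-coding genes that averaged 10 RPKM or more. The medians of these 3 backgrounds were -0.02, -0.10 and -0.11. Fewer cells of a kind and less RNA per cell cannot be told apart in such bulk samples, and RPKM gives a gene's share of the RNA and not its amount per cell.

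The downward side was broad and shallow. At least 2-fold lower were 9 of the 63 genes (14.3%), against 9.56% of all expressed genes, 9.5% of the protein-coding genes and 8.74% of those averaging 10 RPKM or more. At least 1.5-fold lower were 25 of the 63 (39.7%), against 20.7%, 21.9% and 21.1% of the same backgrounds. No gene was at least 2-fold higher, where the backgrounds had 7.73%, 4.12% and 3.48%. None was at least 1.5-fold higher either, where the backgrounds had 18.8%, 13.2% and 11.3%. By counting error alone, the interval lay below 0 for 50 of the 63 genes, above 0 for 8, and held 0 for 5, which were MRPL34, MRPL42, MRPL48, MRPS14 and MRPS24.

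**Figure D1:**
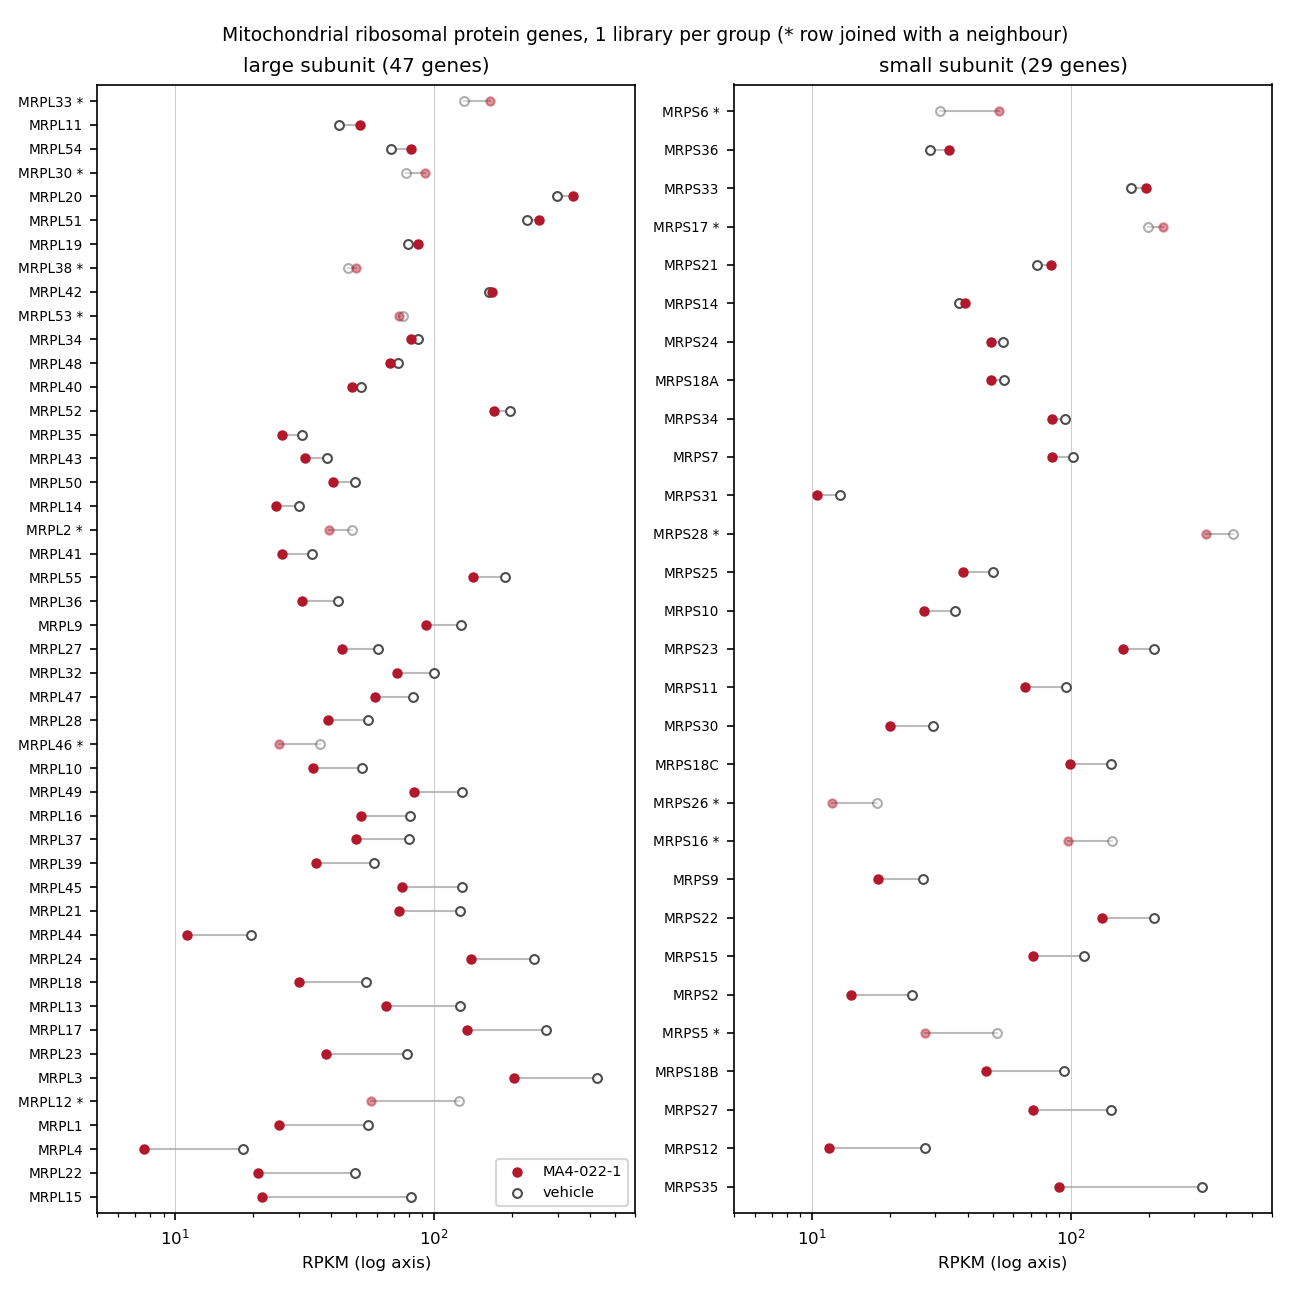
RPKM on a log axis of all 76 mitoribosome genes, ordered by their ratio within the large (left) and the small subunit (right), with 1 library per group. Filled red points are MA4-022-1, open points are vehicle and pale pairs marked * are rows joined with a neighbouring gene; in 53 of the 63 genes listed alone the red point lies to the left.

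The large and the small subunit, assigned by symbol, shared this tendency. In the large subunit, 34 of 40 genes were lower with MA4-022-1, with a median ratio of -0.48, and their median level was 52.0 RPKM with MA4-022-1 and 78.9 RPKM with vehicle. In the small subunit, 19 of 23 were lower, with a median of -0.39, and the median level was 49.2 and 74.3 RPKM. The difference of the medians, large minus small, was -0.08, small beside the quartiles within each subunit, which were -0.78 and -0.23 in the large and -0.65 and -0.16 in the small. At least 2-fold lower were 7 of 40 genes (17.5%) in the large and 2 of 23 (8.7%) in the small subunit. Beside these stand 9.56% of all expressed and 9.5% of protein-coding genes, so the small subunit had no excess at 2-fold. Genes at least 1.5-fold lower numbered 18 (45%) and 7 (30.4%), beside 20.7% and 21.9% of the same backgrounds.

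Within the large subunit, the lowest ratio belonged to MRPL15 (hg19 chr8:55047745-55060914, a locus with no other named row), the counterpart of a bacterial protein in the core of the subunit. It had 21.7 RPKM in the MA4-022-1 library and 81.5 RPKM in the vehicle library. That was 3.63-fold lower, and the counting interval of its log2 ratio without the added 1 ran from -2.06 to -1.75.

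Several proteins sit around the exit of the peptide tunnel. MRPL22 (chr5:154320630-154348971), whose bacterial counterpart lines the tunnel, had 20.9 RPKM with MA4-022-1 and 49.6 RPKM with vehicle, 2.31-fold lower. MRPL23 (chr11:1968508-2011150), beside the exit, had 38.3 and 78.6 RPKM, 2.03-fold lower. MRPL17 (chr11:6701928-6704632), of the same region, had 134 RPKM with MA4-022-1 and 271 RPKM with vehicle, 2.02-fold lower. All 3 passed 2-fold, MRPL23 and MRPL17 narrowly. MRPL24, another protein of the exit, had 138 and 242 RPKM, a ratio of -0.80. MRPL45, which ties the exit to the inner membrane, had 75.3 RPKM with MA4-022-1 and 129 RPKM with vehicle (-0.76), and MRPL47 had 59.1 and 83.2 RPKM (-0.49). MRPL24 and MRPL45 thus lay between 1.5-fold and 2-fold lower, and MRPL47 lay within 1.5-fold. The genes here and in the next paragraphs are ordered by the place of the protein and not by ratio, and places were given no count or test.

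Other proteins bind the ribosomal RNA early and form the core. MRPL3 (chr3:131180304-131221827), the counterpart of an early-binding bacterial protein, had 204 RPKM with MA4-022-1 and 427 RPKM with vehicle, the highest vehicle level of any member listed alone. It was 2.09-fold lower, with a counting interval of -1.11 to -1.02. MRPL4 (chr19:10362577-10399695), at a locus that other named rows share, had the lowest MA4-022-1 level of the members, 7.57 RPKM against 18.3 RPKM with vehicle, 2.25-fold lower with an interval of -1.52 to -1.03. So both a highly and a sparsely expressed core protein gene lay past 2-fold. MRPL13, another protein that binds the RNA early in bacteria, had 65.4 and 126 RPKM (-0.94). MRPL16, near the site of peptide bond formation, had 52.3 RPKM with MA4-022-1 and 80.7 RPKM with vehicle (-0.62), and MRPL27, which reaches into that site in bacteria, had 44.2 and 60.8 RPKM (-0.45).

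The stalks, which handle transfer RNAs and translation factors, were not uniform. MRPL1 (chr4:78783674-78873944), of the stalk beside the exit of spent transfer RNA, had 25.05 RPKM with MA4-022-1 and 55.4 RPKM with vehicle, 2.16-fold lower. MRPL10, the base of the factor stalk, had 34.1 and 52.6 RPKM (-0.61). The row that joins MRPL12, the factor-binding stalk protein, with SLC25A10 had 57.2 RPKM with MA4-022-1 and 125 RPKM with vehicle, and how much of that is MRPL12 cannot be told. Against these 3 lower values, MRPL11, at the foot of the same stalk, had the highest ratio of all members listed alone, with 51.6 RPKM with MA4-022-1 and 43.0 RPKM with vehicle (0.26).

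Of the central protuberance, which holds a structural RNA in mammalian mitoribosomes, 5 genes are given here. They are not a full list of its proteins, and mitoribosome proteins under other symbols are described further below. MRPL18, whose bacterial counterpart binds the 5S RNA, had 30.03 RPKM with MA4-022-1 and 54.8 RPKM with vehicle (-0.85). The mitochondria-specific MRPL40 had 48.1 and 52.4 RPKM (-0.12), and MRPL48 had 67.7 and 72.6 RPKM (-0.10). The joined rows of MRPL46 (with DET1) had 25.2 and 36.3 RPKM, and of MRPL38 (with FBF1) 49.9 and 46.5 RPKM, with MA4-022-1 first. One of these 5 values was past 1.5-fold.

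Some genes of the large subunit lay slightly above 0. MRPL20 (chr1:1334902-1342693), whose bacterial counterpart is needed for early assembly, had 343 RPKM with MA4-022-1, the highest level of the members in that library, and 298 RPKM with vehicle (0.20). MRPL51 had 255 and 229 RPKM (0.15), MRPL54 had 81.5 and 68.3 RPKM (0.25), and MRPL42 had 168 and 163 RPKM (0.04). None of these 4 reached 1.5-fold. The remaining large subunit gene above 0, MRPL19, summed to 86.7 RPKM with MA4-022-1 and 79.1 RPKM with vehicle (0.13), but its 6 rows at 1 locus (chr2:75873886-75938153) went apart. The strongest row had 33.9 RPKM with MA4-022-1 and 70.5 RPKM with vehicle, which is more than 2-fold lower, while the next rows had 10.7 and 3.58 RPKM, 19.9 and 2.24 RPKM, and 17.5 and 1.71 RPKM. The last rows were listed at 0 with MA4-022-1 beside 1.11 RPKM with vehicle, and at 4.73 RPKM beside 0. A direction for MRPL19 therefore depends on which row is read.

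In the small subunit, MRPS35 (chr12:27863706-27909228), a mitochondria-specific protein of the head, stood apart from its neighbours in rank. It had 90.3 RPKM with MA4-022-1 and 321 RPKM with vehicle, the highest vehicle level of the small subunit genes listed alone. That was 3.52-fold lower, with a counting interval of -1.89 to -1.77, at a locus that other named rows share. MRPS12 (chr19:39405906-39466550), whose bacterial counterpart lies in the decoding centre and carries streptomycin resistance mutations, had 11.7 RPKM with MA4-022-1 and 27.4 RPKM with vehicle, 2.24-fold lower with an interval of -1.45 to -1.01. These 2 were the only small subunit genes listed alone past 2-fold.

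Just short of 2-fold lay MRPS27, a pentatricopeptide repeat protein, with 71.8 RPKM with MA4-022-1 and 143 RPKM with vehicle (-0.98), and MRPS18B, with 47.3 and 94.3 RPKM (-0.98). MRPS18B is 1 of 3 homologs of a single bacterial protein, and the 3 genes differed in size of ratio. MRPS18C had 99.2 RPKM with MA4-022-1 and 144 RPKM with vehicle (-0.53), and MRPS18A, which sits in the large subunit despite its name, had 49.2 and 55.2 RPKM (-0.16). The counting interval of MRPS18B, from -1.09 to -0.90, held neither of the other 2 ratios.

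The other small subunit proteins with a bacterial counterpart spread over a smaller range. MRPS2 had 14.2 RPKM with MA4-022-1 and 24.3 RPKM with vehicle (-0.74), and MRPS15 had 71.3 and 113 RPKM (-0.66). MRPS9 had 17.9 and 26.9 RPKM (-0.56), MRPS11 had 66.6 and 95.5 RPKM (-0.51), and MRPS10 had 27.1 and 35.8 RPKM (-0.39). All 5 were lower with MA4-022-1, and the first pair passed 1.5-fold. MRPS7, which starts assembly of the head in bacteria, had 85.0 and 102 RPKM (-0.26), MRPS24 had 49.1 and 54.9 RPKM (-0.16), MRPS14 had 38.9 and 37.0 RPKM (0.07), and MRPS21 had 84.1 and 74.3 RPKM (0.18), with MA4-022-1 first in each pair. Those 4 lay within 1.5-fold either way.

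Of the mitochondria-specific proteins with an MRPS symbol, MRPS22 had 133 RPKM with MA4-022-1 and 209 RPKM with vehicle (-0.65), and MRPS23 had 160 and 210 RPKM (-0.39). MRPS34 had 84.4 and 94.8 RPKM (-0.16), and MRPS33 had 196 and 171 RPKM (0.19), the highest MA4-022-1 level of the small subunit genes listed alone. MRPS30, a protein of the large subunit despite its name, had 20.05 and 29.3 RPKM (-0.53). MRPS25 had 38.4 RPKM with MA4-022-1 and 49.9 RPKM with vehicle (-0.37), and MRPS31 had 10.4 and 12.9 RPKM (-0.28), so MRPS33 alone among these 7 lay above 0. Outside this class, MRPS36, which biochemical work places in the oxoglutarate dehydrogenase complex, had 33.7 RPKM with MA4-022-1 and 28.7 RPKM with vehicle (0.23).

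Among the 13 joined rows the picture was more mixed, and the neighbour's reads cannot be taken out of them. Their median ratio was -0.29, and 8 of 13 (61.5%) were below 0, beside 55.8% of expressed protein-coding genes. Besides the MRPL12 row, the lower ones included MRPS5 with ZNF514, at 27.5 RPKM with MA4-022-1 and 51.7 RPKM with vehicle (-0.89), MRPS16 with DNAJC9, at 98.1 and 145 RPKM (-0.56), and MRPS26 with GNRH2, at 11.99 and 17.8 RPKM (-0.53). MRPS28 with TPD52 had 335 and 426 RPKM (-0.35), and MRPL2 with CUL7 had 39.3 and 48.4 RPKM (-0.29). Near or above level were MRPL53 with CCDC142 (73.4 and 76.0 RPKM), MRPS17 with GBAS and ZNF713 (227 and 200 RPKM), MRPL30 with LIPT1 and C2orf15 (92.2 and 77.8 RPKM) and MRPL33 with BRE (164 and 130 RPKM), with MA4-022-1 first. The row of MRPS6 with SLC5A3 was the highest, at 52.7 RPKM with MA4-022-1 and 31.3 RPKM with vehicle (0.73), and no joined row was at least 2-fold higher.

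Split by ancestry, the genes with a bacterial counterpart had the lower median, and those past 2-fold among them were nearly all of the large subunit. The 37 with a counterpart, 24 of them large subunit genes, had a median of -0.53. Of these 37, 32 (86.5%) were below 0 and 8 (21.6%) were at least 2-fold lower, beside 9.5% of expressed protein-coding genes. Of the 24 mitochondria-specific genes, 20 (83.3%) were below 0, with a median of -0.37, and MRPS35 was the 1 past 2-fold (4.17%). In the large subunit the medians were -0.61 (24 genes listed with a counterpart) and -0.27 (15 genes listed as mitochondria-specific). There 7 (29.2%) and 0 genes were at least 2-fold lower. In the small subunit the medians were -0.51 (13 genes) and -0.39 (9 genes). But 1 gene of each class passed 2-fold (7.69% and 11.1%), near the protein-coding share. In the same order, 30.8% and 33.3% lay 1.5-fold or more below vehicle, beside 21.9% of protein-coding genes. MRPL55 and MRPS36 were placed in neither class. The classes came from a list written from general knowledge. It counts MRPL47 (-0.49) as mitochondria-specific although this protein has a bacterial counterpart, so the counts and medians of the classes are approximate. Genes are not replicates, and this split was given no test.

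The size of the difference followed neither level nor location closely. Spearman's correlation of the ratio with vehicle RPKM was -0.09, and with transcript length -0.27, both over 63 genes that share the 2 libraries, given as a description. Vehicle RPKM is also the denominator of the ratio, so the first correlation is not between independent values. Genes at or over the median vehicle level had a median ratio of -0.57 (27 of 32 below 0), and genes under it had -0.37 (26 of 31 below 0). In the same order, 50% and 29% were at least 1.5-fold lower, beside 21.9% of expressed protein-coding genes. The 63 members listed alone lie on 20 chromosomes, and on each of the 8 chromosomes with at least 4 members listed alone more were lower than higher. The 29 genes with a locus to themselves had a median of -0.45, with 25 below 0. Of these 29, 3 (10.3%) were at least 2-fold lower, MRPL15, MRPL22 and MRPL17, beside 9.56% of all expressed genes. The 34 others had a median of -0.50, with 28 below 0 and 6 (17.6%) past 2-fold.

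Copies derived from these genes carried little signal. Of 63 rows named as pseudogenes or antisense genes of a member, 48 were listed at 0 in both libraries and 2 reached 1 RPKM. MRPL45P2 had 4.08 RPKM with MA4-022-1 and 3.38 RPKM with vehicle, and the joined row of MRPS31P5 had 1.23 and 1.75 RPKM.

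Many mitoribosome genes start close to a neighbour on the other strand, and the signs of such pairs were mixed. Among 20 pairs with starts within 1000 nt, both genes listed alone and the neighbour expressed, the sign of the ratio was the same in 8 and opposite in 12 (60%), against 43.2% opposite among 729 such pairs of expressed protein-coding genes. The mitoribosome genes had a median of -0.45 with 17 below 0, and their neighbours had a median of 0.18 with 9 below 0. Because 17 of the 20 mitoribosome genes were below 0, against 55.8% of expressed protein-coding genes, the 60% and 43.2% cannot be compared directly. Where the mitoribosome gene was lower, the neighbour was higher in 10 of 17 pairs, a split that was given no test.

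Some pairs with starts less than 100 nt apart show the range. MRPL18, with its ratio of -0.85, starts 63 nt from TCP1, a chaperonin subunit that had 838 RPKM with MA4-022-1 and 646 RPKM with vehicle (0.38). MRPL13, at -0.94, starts 2 nt from MTBP, an MDM2-binding protein that had 1.92 and 4.10 RPKM (-0.81). MRPL36 and NDUFS6, a complex I subunit with 130 RPKM with MA4-022-1 and 159 RPKM with vehicle, were both lower. So a shared start region went with like ratios in some pairs and unlike ratios in others. The neighbours past 2-fold were EME1 beside MRPL27, with 4.85 and 12.1 RPKM (lower), and EME2 beside MRPS34, with 11.6 RPKM with MA4-022-1 and 4.39 RPKM with vehicle (higher), both partners of a DNA repair nuclease. A wider pair, MRPS18B and PPP1R10, starts 903 nt apart, and PPP1R10, a subunit that targets protein phosphatase 1 to the nucleus, had 78.5 and 41.9 RPKM (0.89). Whether reads were counted by strand is not stated in the labels, so overlapping ends could share reads, and the part of this was not tested.

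**Figure D2:**
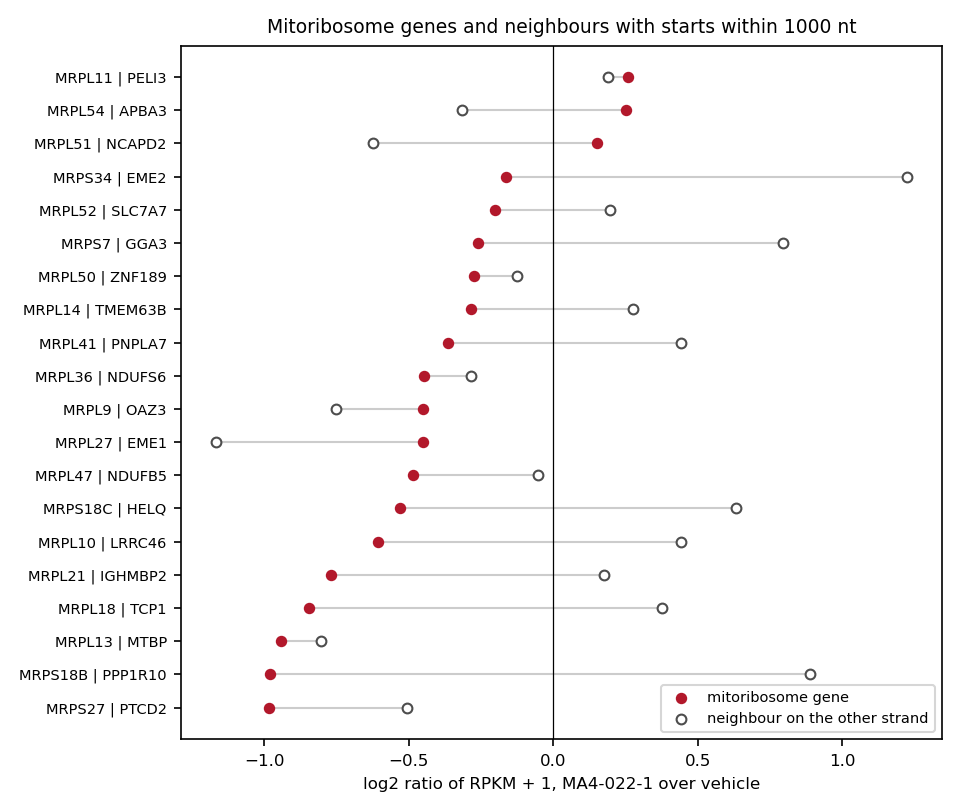
Log2 ratio of RPKM + 1, MA4-022-1 over vehicle, for 20 mitoribosome genes (filled red) and the neighbour that starts within 1000 nt on the other strand (open), with 1 library per group. The 2 points of a row lie on opposite sides of 0 in 12 pairs.

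Promoters of mitochondrial genes are known to be rich in sites for ETS-family factors such as GABP (also called NRF2), and for NRF1 and YY1, and short motifs of these were searched in windows from 250 nt before to 50 nt after the first listed start, on both strands (RefSeq, GRCh38.p14). A window was found for 67 of the 76 members, for 15843 protein-coding genes and for 27305 genes in all. The ETS letters CCGGAAG were in 28 of 67 members (41.8%), against 14.2% of protein-coding and 10.7% of all windows. The YY1 letters AAGATGGC were in 20 members (29.9%), against 3.91% and 3.03%. Both were in 8 members and at least 1 in 40. Nearer to other promoters was the NRF1 palindrome, in 7 members (10.4%, against 8.58% and 6.28%). So were the E-box CACGTG, which MYC binds, in 6 (8.96%, against 8.88% and 7.43%), and the GC box GGGCGG in 41 (61.2%, against 58.5% and 44.6%). Rarer in members than in other promoters were the NF-Y letters CCAAT, in 20 (29.9%, against 36.4% and 35.7%), and the TATA box TATAAA, in 2 (2.99%, against 9.63% and 12%).

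Members with the ETS letters had a median ratio of -0.27 (22 genes listed alone), and members without them had -0.54 (34 genes). For YY1 the medians were -0.42 (18 genes) and -0.48 (38 genes). All 4 medians were below 0, and a match is a description of letters and not of a bound site. To show the range, the 250 bases before the start are printed for the 3 highest and then the 3 lowest ratios among members listed alone that have a window, with ETS and YY1 letters on either strand in capitals. They lie at chr11:66438849-66439098 (MRPL11, minus strand), chr19:3762432-3762681 (MRPL54, plus), chr1:1407294-1407543 (MRPL20, minus), chr19:10251701-10251950 (MRPL4, plus), chr5:154940823-154941072 (MRPL22, plus) and chr12:27710582-27710831 (MRPS35, plus).

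MRPL11: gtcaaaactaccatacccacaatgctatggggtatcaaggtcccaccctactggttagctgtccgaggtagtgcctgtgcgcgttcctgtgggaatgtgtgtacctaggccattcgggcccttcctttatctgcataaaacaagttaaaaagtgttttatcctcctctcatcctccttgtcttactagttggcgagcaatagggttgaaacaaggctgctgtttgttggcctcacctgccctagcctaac
MRPL54: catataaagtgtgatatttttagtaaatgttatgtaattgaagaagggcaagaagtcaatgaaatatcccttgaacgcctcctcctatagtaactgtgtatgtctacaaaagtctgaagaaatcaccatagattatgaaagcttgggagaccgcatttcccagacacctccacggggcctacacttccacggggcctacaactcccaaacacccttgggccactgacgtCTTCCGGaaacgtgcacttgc
MRPL20: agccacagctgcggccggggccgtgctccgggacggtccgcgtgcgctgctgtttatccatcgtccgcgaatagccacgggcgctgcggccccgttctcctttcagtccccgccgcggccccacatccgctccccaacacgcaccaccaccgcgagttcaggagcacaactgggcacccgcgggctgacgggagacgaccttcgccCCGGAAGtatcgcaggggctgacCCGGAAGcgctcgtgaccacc
MRPL4: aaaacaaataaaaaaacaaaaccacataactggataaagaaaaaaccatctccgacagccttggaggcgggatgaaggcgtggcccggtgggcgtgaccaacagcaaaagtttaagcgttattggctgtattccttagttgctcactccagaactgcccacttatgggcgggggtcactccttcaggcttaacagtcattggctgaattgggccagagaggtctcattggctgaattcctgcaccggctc
MRPL22: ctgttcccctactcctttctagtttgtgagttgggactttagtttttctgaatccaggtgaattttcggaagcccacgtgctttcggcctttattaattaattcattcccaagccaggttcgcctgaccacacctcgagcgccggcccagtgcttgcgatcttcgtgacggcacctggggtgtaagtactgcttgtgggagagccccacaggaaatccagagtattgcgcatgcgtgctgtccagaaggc
MRPS35: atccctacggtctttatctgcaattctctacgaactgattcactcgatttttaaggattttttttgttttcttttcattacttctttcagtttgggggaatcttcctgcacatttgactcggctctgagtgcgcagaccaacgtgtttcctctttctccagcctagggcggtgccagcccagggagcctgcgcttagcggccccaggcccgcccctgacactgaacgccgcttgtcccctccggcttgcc

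MRPL54 held 1 ETS match in this stretch, MRPL20 held 2 and the other 4 held none. MRPL20 and MRPL22 each had 1 YY1 match at or after the start, which lies beyond the printed bases. These genes were chosen by their ratio, and MRPS12 and MRPL3, also more than 2-fold lower, both held ETS letters in their window, so the printed set is an illustration.

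**Figure D3:**
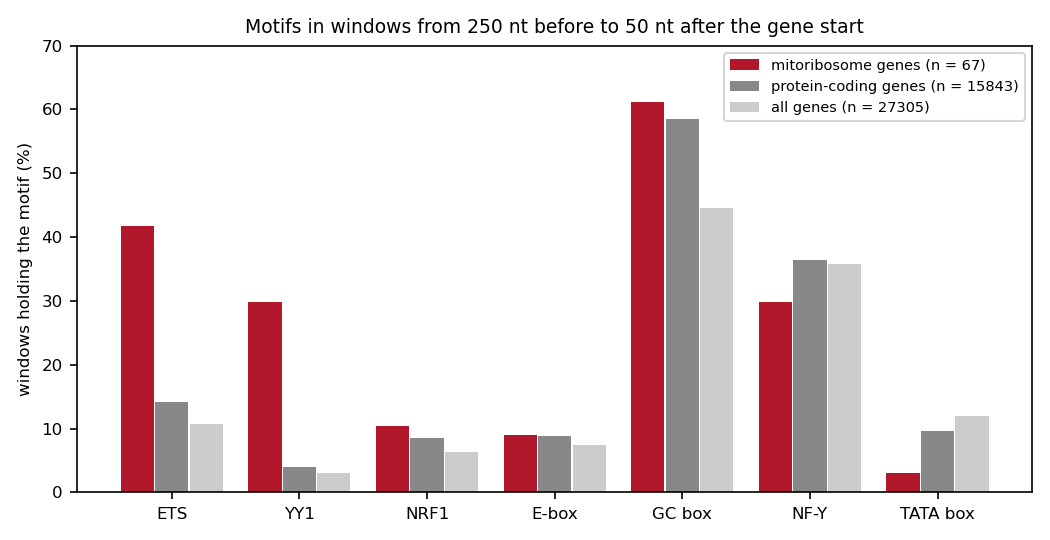
Share of promoter windows, in percent, that hold each motif on either strand, for mitoribosome genes (red, 67 windows), protein-coding genes (dark grey, 15843) and all genes (light grey, 27305). The red bars stand above the grey ones most for ETS, at 41.8%, and YY1, at 29.9%.

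The other genes that build or run the mitoribosome mostly leaned the same way. All 7 mitoribosome proteins that carry other symbols were below 0 (median -0.24), and 2 (28.6%) were at least 2-fold lower, against 9.56% of all expressed and 9.5% of protein-coding genes. These were ICT1 (now MRPL58), a peptidyl-tRNA hydrolase built into the large subunit, with 40.1 RPKM with MA4-022-1 and 88.9 RPKM with vehicle, and GADD45GIP1, with 50.9 and 109 RPKM. DAP3, the GTP-binding protein of the small subunit, had 308 RPKM with MA4-022-1 and 451 RPKM with vehicle (-0.55). Of 19 assembly factors listed alone, 18 were below 0 (median -0.35) and 2 (10.5%) were at least 2-fold lower, near those shares. Those were WBSCR16, an assembly factor of the large subunit, with 9.65 and 22.2 RPKM, and MRM1, an rRNA methyltransferase, with 1.16 and 3.50 RPKM. RNMTL1, which also methylates the large subunit RNA, had 12.5 RPKM with MA4-022-1 and 24.1 RPKM with vehicle (-0.89), and METTL15, which methylates the small subunit RNA, had 11.2 and 21.2 RPKM (-0.87).

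Of 13 translation factors listed alone, 11 were below 0 (median -0.32). MTIF2, the initiation factor that brings the first transfer RNA, was the 1 past 2-fold (7.69%, beside 9.5% of protein-coding genes), with 22.3 RPKM with MA4-022-1 and 48.3 RPKM with vehicle. TACO1, an activator of COX1 translation, had 7.89 and 16.4 RPKM (-0.97), and C12orf65, a rescue factor, had 12.2 and 17.8 RPKM (-0.51). Among 20 genes of mitochondrial transcription, RNA handling and DNA replication, 17 (85%) were below 0 (median -0.55). Of these 20, 4 (20%) were at least 2-fold lower, beside 9.5% of protein-coding genes. The helicase SUPV3L1 had 21.2 RPKM with MA4-022-1 and 58.6 RPKM with vehicle (-1.43), and PNPT1, its partner in RNA decay, had 11.1 and 27.9 RPKM (-1.26). TFB2M, which opens the mitochondrial promoter, had 16.8 and 44.8 RPKM (-1.37), and the DNA helicase C10orf2 (Twinkle) had 5.72 and 14.7 RPKM (-1.22). Of the 3 genes above 0, both chains of the DNA polymerase are named after their values were seen, POLG with 35.0 RPKM with MA4-022-1 and 21.8 RPKM with vehicle (0.66) and POLG2 with 20.1 and 12.97 RPKM (0.59).

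All 8 expressed regulators of mitochondrial gene expression were below 0 (median -0.42), beside 55.8% of expressed protein-coding genes. Of these 8, MYC alone (12.5%) was at least 2-fold lower, near the 9.5% of protein-coding genes. MYC had 33.7 RPKM with MA4-022-1 and 78.5 RPKM with vehicle, and YY1 had 76.4 and 139 RPKM (-0.85). ESRRA, a nuclear receptor, had 19.7 and 31.4 RPKM (-0.64), and of the other factors whose motifs were searched, GABPA, the DNA-binding chain of GABP, had 6.59 and 9.38 RPKM (-0.45) and NRF1 had 8.99 and 10.7 RPKM (-0.23). Their part in the mitoribosome values was not tested.

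Nuclear respiratory chain genes had a median ratio near 0, and cytosolic ribosomal protein genes had one above 0. Of 61 respiratory chain genes listed alone, 33 (54.1%) were below 0 (median -0.04), beside 55.8% of expressed protein-coding genes. ATP5D, of the ATP synthase, was the 1 past 2-fold (1.64%, beside 9.5%), with 22.3 RPKM with MA4-022-1 and 50.5 RPKM with vehicle. CYC1, cytochrome c1 of complex III, had 95.2 and 185 RPKM (-0.95), whereas NDUFA3, of complex I, had 262 and 144 RPKM (0.85). Of 68 cytosolic ribosomal protein genes listed alone, 10 (14.7%) were below 0 (median 0.28). At least 2-fold lower were 0 of 68 and at least 2-fold higher were 2 of 68, beside 9.5% and 4.12% of protein-coding genes. Those 2 were RPL7A, with 8644 RPKM with MA4-022-1 and 2215 RPKM with vehicle (1.96), and RPS20, with 3121 and 1412 RPKM (1.14). Below 0 were thus 53 of 63 mitoribosome genes, 33 of 61 respiratory chain genes and 10 of 68 cytosolic ribosomal protein genes in the same 2 libraries, a difference that was given no test for want of replicates.

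**Figure D4:**
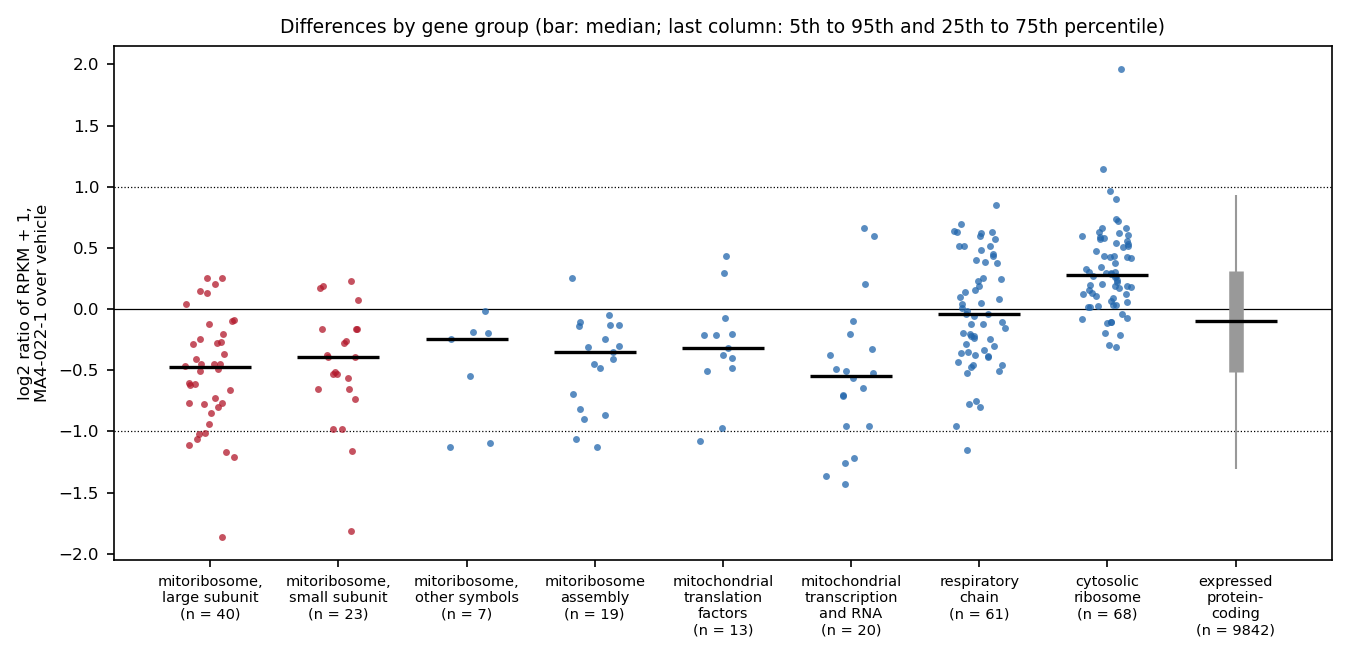
Log2 ratio of RPKM + 1, MA4-022-1 over vehicle, for genes listed alone in each list (points, 1 per gene) with the median as a bar and dotted lines at 2-fold, and 1 library per group. The last column gives expressed protein-coding genes by their percentiles; the mitoribosome medians of -0.48 and -0.39 lie below its median of -0.10, and the cytosolic ribosome's 0.28 lies above it.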

How the data were processed

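C4-2B cells given MA4-022-1 or vehicle were profiled, with 1 library per group. Ribosomal RNA was removed and single reads of 50 nt were taken, per the labels' protocols. TopHat2 2.0.13, Cufflinks 2.2.1 and the build hg19 were used, per the submitters' processing notes. The authors deposited RPKM per row with a locus and a symbol, and these normalised values allow no count test. An exact 0 can be a failed estimate.

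Rows of a symbol were summed, 2751 rows without a symbol were left out, and members in joined rows were described apart. Expressed meant at least 1 RPKM in a library. Ratios used RPKM + 1, and with no replicates 2-fold and 1.5-fold served as rules of size. Every member could be named, and in related lists those past 2-fold and the 3 largest ratios at 5 RPKM or more, with the exceptions marked in the text. Members and lists were chosen with earlier results of these data known.

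Totals of reads came from the steps that low values take in processed pseudogenes between 600 and 6000 nt long. Of values worth at most 5 reads, 170 of 195 with MA4-022-1 (87.2%) and 224 of 256 with vehicle (87.5%) lay within 2% of a whole read. Reads per member used the median protein-coding transcript length of GENCODE 29, which also gave gene types and neighbours, and Clopper-Pearson intervals at 95%. Both steps were tested on simulated data. Deposited starts count from 0 and were raised by 1. Python 3.11.15, numpy 2.4.6, pandas 2.3.3, scipy 1.17.1 and matplotlib 3.10.9 were used. Results were recomputed under further pseudocounts, filters, scalings, thresholds and choices of rows. Of the markers of the line that were looked up, 1 is not reported here.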

Additional observations from a re-analysis of the deposited data

How the results depend on the processing

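The median ratio of the members stayed below 0 in every setting run, between -0.59 (equal sums over expressed genes) and -0.35 (housekeeping controls set to 0), and 0 members were at least 2-fold higher in any. The count at least 2-fold lower depended more on the choice: 9 as reported, 5 with a pseudocount of 5 RPKM, 5 with housekeeping controls set to 0, 12 with equal sums and 25 at 1.5-fold. Among the 29 genes with a locus to themselves, a choice made after seeing the data, 3 were 2-fold lower and 25 were below 0, since fewer genes entered. A pseudocount of 5 RPKM took MRPL4, MRPL17, MRPL23 and MRPS12 inside 2-fold. Housekeeping scaling took MRPL1, MRPL3, MRPL17 and MRPL23 inside it and turned MRPL34 and MRPL48 above 0, while equal sums turned MRPL42 and MRPS14 below 0. These scalings moved the median of all expressed genes to 0.10 and -0.14. With the highest row in place of the sum, MRPL19 had -1.03. Large minus small subunit stayed below 0, between -0.28 (locus to itself) and -0.02 (without MRPS36, or with 1-row symbols). It was also -0.02 with subunits assigned by structure (42 large, 20 small) in place of by symbol. No paired analysis was possible because each group had 1 library. Depth limits the small differences, since 5 counting intervals held 0, and no interval covers the spread between cultures.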
